A study of Mus musculus with 8 samples.

Results

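Cyp4f18, a cytochrome P450 that hydroxylates leukotriene B4, and 9 further genes of leukotriene and prostaglandin metabolism were followed in RNA-sequencing libraries of bone marrow-derived macrophages (BMDMs). The 10 genes are Cyp4f18, Alox5, Alox5ap, Lta4h, Ltc4s, Ltb4r1, Ptgs1, Ptgs2, Ptges and Hpgds, out of 23761 genes listed in the expression table. They were selected with measured values in view: Cyp4f18 had stood out in earlier results of these libraries for its low level in one genotype, and the others were taken as genes of the same pathway. Their values in that contrast are therefore given as a description, and the one count of them that passed the thresholds used for all genes supports nothing.

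BMDMs came from LysM mice, which carry LysM Cre on both alleles, and from K2KO mice, which carry LysM Cre on both alleles together with KLF2 flox on both alleles. All mice were on the C57BL/6J background and 3 months old, with 4 mice per genotype and 1 library per mouse. Both genotypes were labelled as vehicle, and Cre, driven by the lysozyme M gene, was thus present in the controls too. Bone marrow was grown into macrophages in medium conditioned by L929 fibroblasts. Expression was given in FPKM, fragment counts scaled by transcript length and by the size of the library. The libraries are called LysM0 to LysM3 and K2KO0 to K2KO3 after the numbers of the table's columns, which could not be tied to single mice.

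Eicosanoids are lipid mediators made from arachidonic acid that phospholipases release from membranes. In the leukotriene branch, 5-lipoxygenase (Alox5) and its activating protein FLAP (Alox5ap) make LTA4, which LTA4 hydrolase (Lta4h) turns into LTB4, a chemoattractant for neutrophils, or LTC4 synthase (Ltc4s) joins to glutathione. In the prostaglandin branch, the cyclooxygenases (Ptgs1 and Ptgs2) make PGH2, from which terminal synthases such as Ptges and Hpgds make PGE2 and PGD2. Enzymes of the CYP4F family end the action of LTB4 by oxidizing its tail, and macrophages are known as a source of both branches.

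The targeted gene was compared first. Klf2, the Krüppel-like factor floxed in K2KO mice, stood at 44.1, 52.9, 64.7 and 72.8 FPKM in LysM0 to LysM3 and at 45.5, 41.6, 59.2 and 59.3 FPKM in K2KO0 to K2KO3. The ranges overlapped, and the difference of -0.18 ± 0.17 (SE) on the log2(FPKM + 0.1) scale was not past the threshold (limma adjusted p = 0.460). Values summed over a gene do not show which exons were read, so the deletion itself could not be checked, and the second group is called the libraries labelled K2KO. Lyz2, the gene into which LysM Cre was inserted, had means of 18.6 ± 2.88 and 13.2 ± 1.73 FPKM in the LysM libraries and those labelled K2KO (SD, n = 4 each). Its difference of -0.49 ± 0.12 (SE) on the log2 scale passed the thresholds (limma adjusted p = 0.0260). The Lyz2 difference also passed in 9 of 11 other settings, but in only 4 of 8 comparisons that left out 1 library. Gapdh, a glycolytic gene that every cell uses, was listed at 0 in LysM0 and at no more than 0.4999 FPKM in the other libraries, so a low value or a 0 in this table need not mean that a gene is little expressed. Actb, which encodes a cytoskeletal actin of every cell, had means of 2820.5 ± 138 and 2188 ± 218 FPKM (SD, n = 4 each) in groups that did not overlap. Its difference of -0.37 ± 0.09 (SE) on the log2 scale passed the thresholds too (limma adjusted p = 0.0239). The Actb difference passed in 8 of 11 other settings and in 2 of 8 comparisons that left out 1 library. Over these it ranged from -0.43 to 0.0061, so its direction was not kept in all.

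Cyp4f18 (ENSMUSG00000003484) lies on the minus strand of chromosome 8 at chr8:71988482-72009626 of GRCm38, the assembly behind mm10. The 250 bases upstream of its start, at chr8:72009627-72009876 on the minus strand, are printed because CACCC and its reverse complement GGGTG, the core of the sequences that Krüppel-like factors are known to bind, can be looked up in them. The sequence is from RefSeq (GRCm38.p6), 5′ to 3′, with each match of either strand in capitals.
Cyp4f18 promoter: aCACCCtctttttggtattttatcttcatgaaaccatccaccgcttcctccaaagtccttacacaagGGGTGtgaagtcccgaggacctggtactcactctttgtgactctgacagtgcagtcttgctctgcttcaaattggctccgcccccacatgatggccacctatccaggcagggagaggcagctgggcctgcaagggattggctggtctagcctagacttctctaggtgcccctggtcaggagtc
The window held 2 matches, which began 249 and 183 bases upstream of the start. At least 1 match was present in 52% of 32851 promoter windows of the same length, and at least as many as in Cyp4f18 in 21.1%. Among the 9 genes of the group with a RefSeq window, 5 had a match (Cyp4f18, Lta4h, Ltc4s, Ltb4r1 and Ptges). A match describes these letters and is not a binding site.

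Cyp4f18 was an abundant transcript in LysM BMDMs and close to the lower end of the scale in every library labelled K2KO. It stood at 21.2, 46.2, 43.7 and 48.2 FPKM in LysM0 to LysM3. It stood at 0.278, 0.428, 0.557 and 0.852 FPKM in K2KO0 to K2KO3. The groups did not overlap, and LysM0 was low among the LysM libraries but far above all libraries labelled K2KO. The mean was 39.8 ± 12.5 FPKM (SD, n = 4) in LysM, higher than 91.3% of the listed genes. Among libraries labelled K2KO it was 0.529 ± 0.244 FPKM (SD, n = 4), so that the LysM mean was 75.3 times as high. On the log2(FPKM + 0.1) scale the difference was -6.00 ± 0.32 (SE). It was -6.28 without LysM0 and -4.69 with a pseudocount of 1, which by construction shrinks the difference of a gene that is low in one group.

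The smallest steps between low FPKM, which are worth 1 fragment each, gave an estimate of the fragments behind these values. Cyp4f18 rested on about 750.5 to 2067 fragments per library in LysM and on about 12.0 to 29.2 in the libraries labelled K2KO, so that the low values were above 0 but imprecise. Relative depth was 1.00, 0.973, 1.06 and 1.21 in LysM0 to LysM3 and 1.23, 1.30, 0.847 and 0.967 in K2KO0 to K2KO3. No difference between the genotypes was detected in it (two-sided exact permutation test, p = 0.8286, 35 splits). In bulk libraries such as these, fewer cells of a type and less RNA per cell cannot be told apart.

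**Figure D1:**
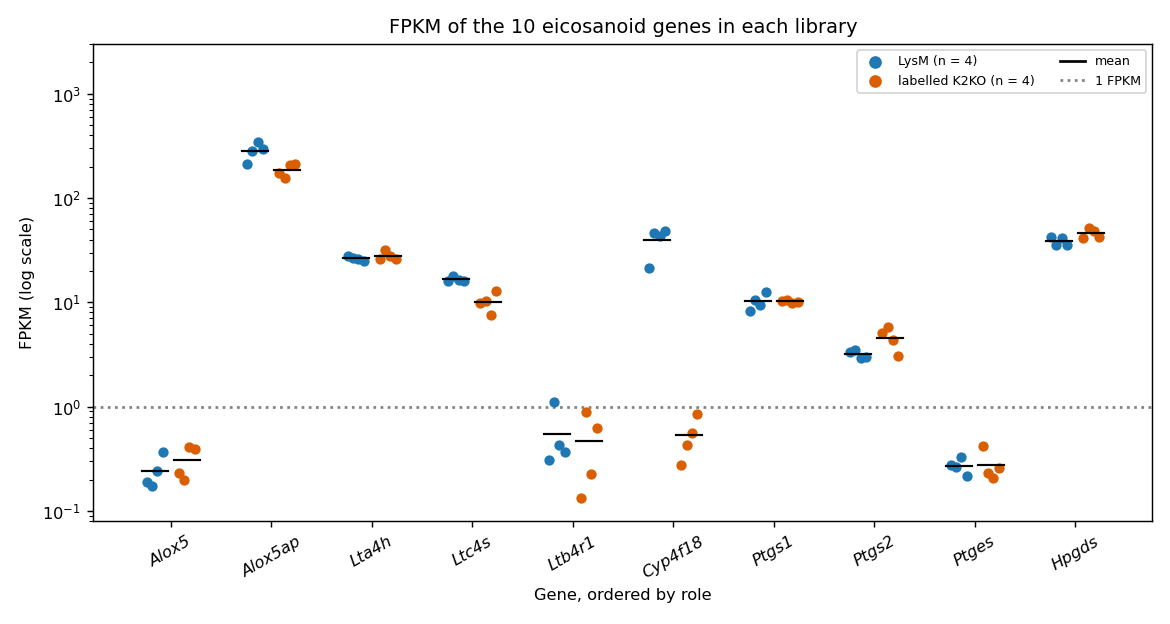
FPKM on a log axis for the 10 genes in each library, with LysM in blue, libraries labelled K2KO in orange and the group mean as a black line (n = 4 each). The Cyp4f18 groups are separated by more than an order of magnitude, Ltc4s is the other gene without overlap, and Alox5, Ltb4r1 and Ptges lie near or below 1 FPKM.

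The levels of the 10 genes in LysM BMDMs ranged widely. The FLAP transcript was the most abundant, at a mean of 283 FPKM. Cyp4f18 and Hpgds came next, with overlapping ranges of 21.2 to 48.2 and 35.3 to 42.0 FPKM, and were followed by Lta4h, Ltc4s, Ptgs1 and Ptgs2 (26.4, 16.6, 10.2 and 3.19 FPKM), whose ranges did not overlap from one to the next. Ltb4r1, Ptges and Alox5 had means of 0.550, 0.271 and 0.242 FPKM, and each of these ranges overlapped the next. The 3 low genes were under the mean of 1 FPKM that was required for the comparison across genes, which left 7 of the 10. Cyp4f18 reached that mean only through the LysM libraries, as its mean in the libraries labelled K2KO was 0.529 FPKM.

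Of these 7 genes, 3 were past the thresholds for differential expression (adjusted p under 0.05 and an absolute log2 difference over 0.26): Cyp4f18, Alox5ap and Ltc4s, each lower in the libraries labelled K2KO. Over all 10920 genes compared, 18.4% passed, 8.61% lower and 9.84% higher. Of the genes that passed, 53.3% were thus higher, a share that was 64.1% with upper-quartile scaling of the libraries and 44.2% with a local regression on GC content and length. The groups did not overlap for Cyp4f18 and Ltc4s, against 23.1% of all genes compared. The median difference of the 7 genes was 0.02 on the log2 scale, beside 0.01 for all genes compared. As the genes were selected on this contrast, these counts and the following ones under other settings only describe them and support nothing. Cyp4f18, chosen for this difference, was past the thresholds in all 11 other settings and all 8 comparisons that left out 1 library. Ltc4s passed in 8 and 7 of these, failing with no filter on low values, with the GC content and length correction (with or without the replicate block) and without LysM3. Alox5ap passed in 8 and 2, failing with quantile normalization, ordinary least squares and no filter on low values, and among the comparisons with 1 library left out it passed without LysM0 and without K2KO3.

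The first step of leukotriene synthesis had a high FPKM for FLAP and a low one for 5-lipoxygenase, in the range where Gapdh was listed too. Alox5ap (chr5:149264767-149288153, plus strand), which presents arachidonic acid to 5-lipoxygenase, stood at 209.8, 282, 346 and 293 FPKM in LysM0 to LysM3 and at 173, 155, 207 and 213 FPKM in K2KO0 to K2KO3. The means were 283 ± 56.2 and 187 ± 27.5 FPKM (SD, n = 4 each), with a difference of -0.59 ± 0.16 (SE) on the log2 scale. The ranges overlapped, because LysM0 was below the highest library labelled K2KO. Alox5 (chr6:116410077-116461178, minus strand) stood at 0.187, 0.174, 0.241 and 0.366 FPKM in LysM0 to LysM3 and at 0.229, 0.199, 0.406 and 0.390 FPKM in K2KO0 to K2KO3. These values overlapped throughout and rested on about 12.6 to 33.0 fragments per library. FPKM of Alox5ap were 1244 ± 360 times those of Alox5 in LysM and 647 ± 140 times in the libraries labelled K2KO (SD, n = 4 each).

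The enzymes that compete for LTA4 follow. Lta4h (chr10:93453411-93484875, plus strand) stood at 27.6, 26.9, 26.2 and 25.0 FPKM in LysM0 to LysM3 and at 25.9, 31.9, 27.6 and 25.8 FPKM in K2KO0 to K2KO3. The ranges overlapped, with a difference of 0.07 ± 0.08 (SE) on the log2 scale. Ltc4s (chr11:50236461-50238616, minus strand), which makes the parent of the cysteinyl leukotrienes, stood at 16.1, 17.9, 16.5 and 15.9 FPKM in LysM0 to LysM3. It stood at 9.77, 10.3, 7.495 and 12.8 FPKM in K2KO0 to K2KO3, and every one of these values was below every LysM value. The means were 16.6 ± 0.884 and 10.1 ± 2.19 FPKM (SD, n = 4 each), with a difference of -0.74 ± 0.14 (SE) on the log2 scale. FPKM of Ltc4s were 0.629 ± 0.0341 times those of Lta4h in LysM and 0.367 ± 0.0972 times in the libraries labelled K2KO (SD, n = 4 each). After each library was adjusted for the GC content and length of transcripts, the difference of Ltc4s was -0.46 on the log2 scale.

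The receptor for LTB4 that leukocytes use for chemotaxis, Ltb4r1 (chr14:55765962-55768494, plus strand), was low in all libraries. It stood at 0.304, 1.10, 0.432 and 0.365 FPKM in LysM0 to LysM3 and at 0.133, 0.886, 0.228 and 0.620 FPKM in K2KO0 to K2KO3. LysM1 and K2KO1 were the highest of their groups, the ranges overlapped, and the values rested on about 4.7 to 33.5 fragments per library.

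The cyclooxygenases were both expressed. Ptgs1 (chr2:36230426-36252272, plus strand), the cyclooxygenase that most cells express without a stimulus, stood at 8.21, 10.6, 9.35 and 12.7 FPKM in LysM0 to LysM3 and at 10.4, 10.5, 9.85 and 9.99 FPKM in K2KO0 to K2KO3. The libraries labelled K2KO fell within the LysM range, and the difference was 0.02 ± 0.12 (SE) on the log2 scale. Ptgs2 (chr1:150100031-150108227, plus strand), the cyclooxygenase that inflammatory stimuli induce, stood at 3.35, 3.47, 2.93 and 2.99 FPKM in LysM0 to LysM3 and at 5.12, 5.76, 4.34 and 3.09 FPKM in K2KO0 to K2KO3. K2KO0, K2KO1 and K2KO2 were above all LysM libraries, and K2KO3 fell within the LysM range. The means were 3.19 ± 0.268 and 4.58 ± 1.15 FPKM (SD, n = 4 each), with a difference of 0.48 ± 0.17 (SE) on the log2 scale. With the GC content and length correction it was 0.26, and without K2KO3 it was 0.65. As a description, the difference of Ptgs2 was not past the thresholds. It was past them in 1 of 11 other settings, with the replicate number, which did not pair the libraries, as a block. It was also past them in 1 of 8 comparisons that left out 1 library. The library left out there was K2KO3, the one within the LysM range.

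Of the terminal prostaglandin synthases, Hpgds (chr6:65117293-65144908, minus strand), which makes PGD2 in hematopoietic cells, stood at 42.0, 35.8, 41.4 and 35.3 FPKM in LysM0 to LysM3. It stood at 41.7, 51.5, 48.5 and 42.0 FPKM in K2KO0 to K2KO3. The means were 38.6 ± 3.55 and 45.9 ± 4.89 FPKM (SD, n = 4 each), the ranges overlapped at about 42 FPKM, and the difference was 0.25 ± 0.09 (SE) on the log2 scale, 0.08 after the GC content and length correction. Ptges (chr2:30889471-30929863, minus strand), the inducible PGE2 synthase, stood at 0.273, 0.263, 0.331 and 0.216 FPKM in LysM0 to LysM3 and at 0.415, 0.229, 0.206 and 0.256 FPKM in K2KO0 to K2KO3, with overlapping ranges.

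Over all genes compared, the differences varied with the GC content of the transcripts. In the eighth of compared genes with the lowest GC content, the median difference was 0.19 on the log2 scale and 24.9% passed as higher. In the eighth with the highest, the median was -0.16 and 21.9% passed as lower. Hpgds and Ptgs2 were in the lowest eighth, Lta4h in the second, Ptgs1 in the fifth, Alox5ap in the sixth, Cyp4f18 in the seventh and Ltc4s in the highest. With the correction for GC content and length, the differences were -5.85 for Cyp4f18, -0.47 for Alox5ap and -0.46 for Ltc4s on the log2 scale.

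**Figure D2:**
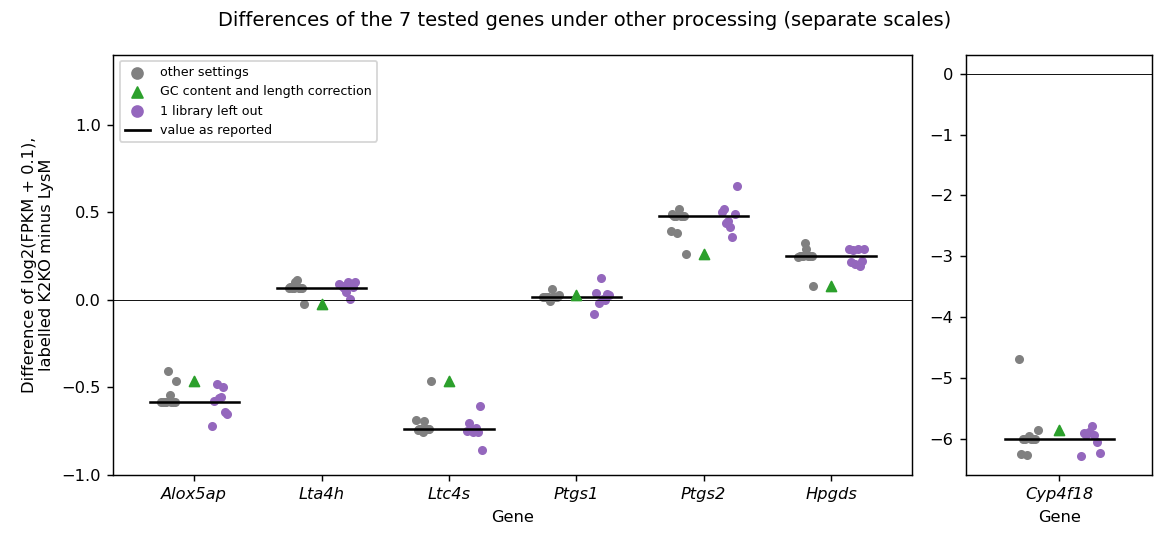
Difference of log2(FPKM + 0.1), labelled K2KO minus LysM, for the 7 genes compared, as reported (black line), under other settings (grey), with a GC content and length correction (green triangles) and with 1 library left out (purple). Cyp4f18 has a separate scale and ranges from -6.28 to -4.69, and Lta4h and Ptgs1 fall on both sides of 0.

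Cyp4f18 belongs to a family of 9 CYP4F genes on the list used here, of which 8 were listed and 3 reached the mean of 1 FPKM. Cyp4f13, a related enzyme, stood at 25.7, 30.1, 24.9 and 28.8 FPKM in LysM0 to LysM3 and at 21.7, 19.0, 22.1 and 23.2 FPKM in K2KO0 to K2KO3. All of its libraries labelled K2KO were below all LysM libraries, and the difference of -0.35 ± 0.08 (SE) on the log2 scale passed the thresholds (limma adjusted p = 0.0251). With the GC content and length correction its adjusted p from limma was 0.0533. Cyp4f16 had means of 13.8 ± 1.06 and 12.6 ± 1.46 FPKM (SD, n = 4 each) and overlapping ranges (limma adjusted p = 0.331). Cyp4f17 had values of 0.4997 to 0.907 FPKM, and Cyp4f14, Cyp4f37, Cyp4f39 and Cyp4f40 were under 0.1 FPKM in every library.

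The make-up of the summed family is given as a description only. Its share, sum and ratio contain the Cyp4f18 values for which that gene was chosen, so a difference between the groups was fixed in advance. Cyp4f18 supplied 35.3%, 50.7%, 52.6% and 52.2% of the summed CYP4F FPKM in LysM0 to LysM3 and 0.782%, 1.39%, 1.51% and 2.19% in K2KO0 to K2KO3. The sum itself was 81.6 ± 14.9 FPKM in LysM and 35.5 ± 3.42 FPKM in the libraries labelled K2KO (SD, n = 4 each). FPKM of Cyp4f18 were 1.45 ± 0.426 times those of Cyp4f13 in LysM and 0.0243 ± 0.00980 times in the libraries labelled K2KO (SD, n = 4 each). The Cyp4f18 transcript shared between 80.5% (Cyp4f37) and 85.7% (Cyp4f14) of its aligned bases with 7 other CYP4F transcripts. Cyp4f39 gave no alignment to it of at least 200 bases. No transcript matched Cyp4f18 or another of the 10 genes at 95% identity or more over at least 200 bases. Cyp4f16 did have such a match, to Cyp4f37, so its reads could be split by the counting.

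A wider list of 81 eicosanoid genes in 11 roles, drawn up with earlier results of these libraries known, places the 10 genes in their pathway. Without them it holds 71 genes, of which 63 were listed and 30 compared. Of these 30, 8 were differentially expressed (26.7%), 7 lower and 1 higher in the libraries labelled K2KO, where 18.4% of all genes compared passed, 8.61% lower and 9.84% higher. The counts by role below rest on at most 8 genes each, are set beside these same shares and describe single genes, not a branch. The median difference of the 30 was -0.08 on the log2 scale, beside 0.01 for all genes compared. The groups did not overlap for 10 of the 30 genes, beside 23.1% of all genes compared. With the GC content and length correction, 4 of the 30 passed, all lower (Dpep2, Akr1b3, Ptger4 and Hpgd), while 10.05% of all genes passed, 5.61% lower. With 1 library left out, Dpep2 passed in all 8 comparisons, Ptger4 and Fam213b in 6, Cbr3 in 5, Akr1b3 and Cyp4f13 in 3, Acsl4 in 2 and Hpgd in 1. Without LysM3 and without K2KO2, Dpep2 was the only one of the 8 that passed.

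**Figure D3:**
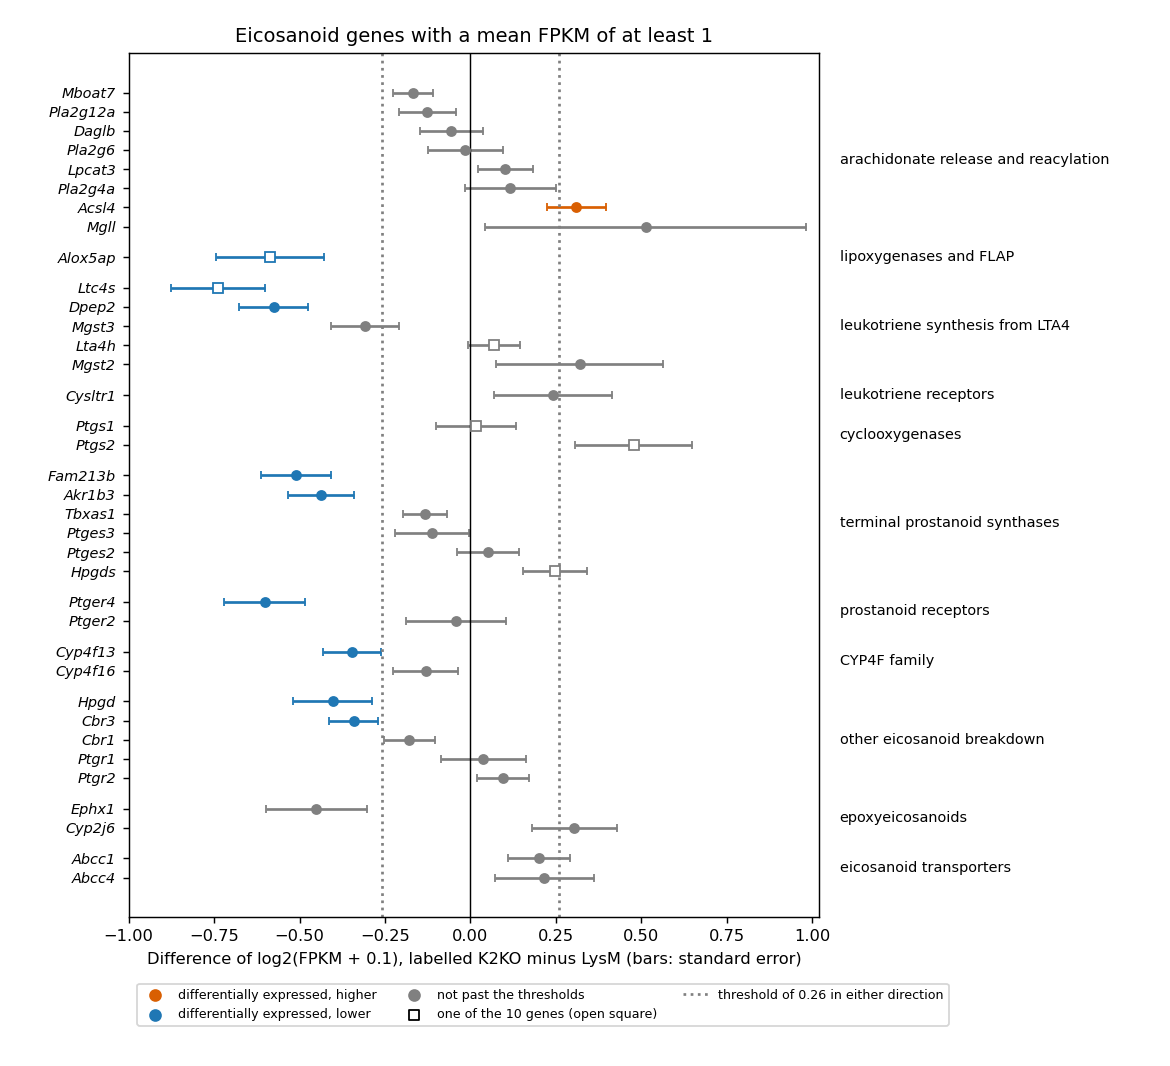
Difference of log2(FPKM + 0.1), labelled K2KO minus LysM, with its standard error for the compared eicosanoid genes other than Cyp4f18, grouped by role. Differentially expressed genes are blue (lower) or orange (higher), open squares mark genes of the group of 10, and dotted lines mark the threshold of 0.26. Dpep2, Alox5ap, Ptger4 and Ltc4s lie at or beyond -0.58, and Acsl4 is the one higher gene.

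In the step that supplies arachidonic acid, 8 genes were compared and 1 passed. Acsl4, which couples arachidonic acid to coenzyme A, rose from 6.79 ± 0.645 to 8.44 ± 0.716 FPKM (SD, n = 4 each), by 0.31 ± 0.09 (SE) on the log2 scale (limma adjusted p = 0.0352). The groups overlapped, and with the GC content and length correction the difference was 0.07 (limma adjusted p = 0.474). The most expressed gene of this role, Daglb, a diacylglycerol lipase, had means of 39.5 and 38.0 FPKM (limma adjusted p = 0.677). Daglb overlaps Rac1 on the opposite strand, and it was not stated whether the counting used strand.

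Downstream of Ltc4s, Dpep2, a membrane dipeptidase that trims LTD4 to LTE4, stood at 216, 289, 257 and 287 FPKM in LysM0 to LysM3. It stood at 171, 166, 193 and 171 FPKM in K2KO0 to K2KO3, below all LysM libraries. The difference of -0.58 ± 0.10 (SE) on the log2 scale (limma adjusted p = 0.0119) was past the thresholds in all 11 other settings that kept the limit of 0.26. A second gene entry named Dpep2 overlaps it on the same strand, and Gm45752 shares 341 bases with it at 100% identity. Neither was listed with expression values, and their part in the Dpep2 values was not tested. Mgst3, a glutathione transferase related to Ltc4s, had means of 31.1 and 25.0 FPKM in groups that did not overlap, but its difference was not past the thresholds (limma adjusted p = 0.0551). Of the receptors other than Ltb4r1, Cysltr1, which binds cysteinyl leukotrienes, was the one compared, with means of 4.17 ± 1.05 and 4.89 ± 0.728 FPKM (SD, n = 4 each, limma adjusted p = 0.331).

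Among terminal prostanoid synthases other than Hpgds and Ptges, 5 were compared and 2 passed, both lower. Fam213b, which encodes a prostamide and prostaglandin F synthase, fell from 46.3 ± 7.10 to 32.1 ± 0.523 FPKM (SD, n = 4 each), a difference of -0.51 ± 0.10 (SE) on the log2 scale (limma adjusted p = 0.0147). It was not past the thresholds with the GC content and length correction (limma adjusted p = 0.104). Akr1b3, an aldose reductase that can also make prostaglandin F, fell from 34.2 ± 2.38 to 25.3 ± 3.33 FPKM (SD, n = 4 each), a difference of -0.44 ± 0.10 (SE) on the log2 scale (limma adjusted p = 0.0203). Its value is uncertain, since 3 listed gene copies with 5.23 to 14.2 FPKM share 99.1% or more of their aligned sequence with it. The most expressed gene of the role was thromboxane synthase, Tbxas1, with means of 76.4 ± 3.91 and 69.7 ± 3.94 FPKM (SD, n = 4 each) in groups that did not overlap, and its difference was not past the thresholds (limma adjusted p = 0.162).

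Of the prostanoid receptors, 2 were compared and 1 passed, as lower. Ptger4, the PGE2 receptor EP4, stood at 10.1, 12.6, 15.5 and 13.6 FPKM in LysM0 to LysM3 and at 8.65, 9.01, 8.23 and 7.77 FPKM in K2KO0 to K2KO3. The groups did not overlap, and the difference was -0.60 ± 0.12 (SE) on the log2 scale (limma adjusted p = 0.0145). Ttc33 overlaps Ptger4 on the opposite strand at a mean of 17.8 FPKM, and its part in the Ptger4 values was not tested.

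Among the enzymes that break down eicosanoids, apart from the CYP4F family, 5 were compared and 2 passed, both lower. Hpgd, the dehydrogenase that inactivates PGE2, fell from 24.5 ± 3.03 to 18.5 ± 2.40 FPKM (SD, n = 4 each), a difference of -0.40 ± 0.12 (SE) on the log2 scale (limma adjusted p = 0.0390), in groups that overlapped. Hpgd passed in 5 of the 11 other settings and failed, among others, with the replicate number as a block (limma adjusted p = 0.0717). Cbr3, a carbonyl reductase, fell from 21.7 ± 0.262 to 17.2 ± 1.62 FPKM (SD, n = 4 each), a difference of -0.34 ± 0.07 (SE) on the log2 scale (limma adjusted p = 0.0176). With the GC content and length correction its adjusted p from limma was 0.163. The related Cbr1, the most expressed of the role, had means of 38.7 and 34.3 FPKM (limma adjusted p = 0.113).

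In the remaining roles, Ephx1, an epoxide hydrolase, and Abcc1, which exports LTC4, were the most expressed. Their means were 22.9 and 16.7 FPKM for Ephx1 (limma adjusted p = 0.0563) and 15.1 and 17.4 FPKM for Abcc1 (limma adjusted p = 0.138).

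Likeness to Cyp4f18 was described by correlation across the 8 libraries, which share the split by genotype for which Cyp4f18 was chosen. Pearson's r with Cyp4f18 on the log2(FPKM + 0.1) scale was 0.89 for Ltc4s and 0.86 for Alox5ap. It was 0.03 for Ptgs1, -0.39 for Lta4h, -0.74 for Hpgds and -0.76 for Ptgs2. Over the deviations of the libraries from their genotype means, r was 0.80 for Alox5ap, 0.47 for Ptgs1 and 0.31 for Ltc4s, and -0.32 for Lta4h, -0.35 for Hpgds and -0.66 for Ptgs2. Among all genes compared, the 5 with the highest r over the 8 libraries were Mri1 (0.99), Mt1 (0.99), Gm43814 (0.99), Pydc3 (0.99) and Cdk2ap2 (0.99).

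None of these 5 genes is an eicosanoid gene. Mri1 (chr8:84249906-84257326) and Mt1 (chr8:94179082-94180327) lie on the chromosome of Cyp4f18 and Klf2. Gm43814, Pydc3 and Cdk2ap2 lie on chromosomes 9, 1 and 19, and the part of position in the likeness was not tested. Mri1, an enzyme of methionine salvage, had means of 5.41 ± 0.210 and 2.87 ± 0.190 FPKM (SD, n = 4 each), and Mt1, a metallothionein that binds zinc, 547 ± 52.0 and 268 ± 27.4 FPKM (SD, n = 4 each). Gm43814 had means of 31.8 ± 5.12 and 5.35 ± 0.821 FPKM (SD, n = 4 each). Pydc3, of the interferon-inducible Ifi200 family, stood at 1.70, 3.45, 5.005 and 5.69 FPKM in LysM0 to LysM3, at 0.0114 FPKM in K2KO0 and was listed at 0 in K2KO1 to K2KO3. A related gene, Ifi213, shares 98.6% of its aligned transcript with Pydc3, which makes its value uncertain. By the deviations from the genotype means, the 5 genes closest to Cyp4f18 were Ndufa5, Eif3i, Ndufa6, Hdac3 and Rer1, each with r of 0.99. These r are the highest among the 10920 genes compared and rest on 8 libraries. The Cyp4f18 values labelled K2KO among them come from about 12.0 to 29.2 fragments each. The ranking over the 8 libraries was unstable: with 1 library left out, between 0 (without K2KO3) and 4 of the 5 genes were again among the 5 highest.

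Cyp4f18 and Klf2 lie on the same chromosome, 309.4 kb apart, so the genes around Cyp4f18 were compared as well. Within 0.5 Mb of it, measured between gene ends, 38 genes were listed and 24 compared. Mri1, Mt1, Dpep2 and Hpgd, on the same chromosome but farther away, were outside this window. Past the thresholds were 4 of the 24, with 2 on either side of 0, a share near the 18.4% of all genes compared, and the median difference was -0.04 on the log2 scale. Fam32a, 210.1 kb from Cyp4f18, rose from 38.8 ± 2.03 to 65.2 ± 4.35 FPKM (SD, n = 4 each), by 0.75 ± 0.07 (SE) on the log2 scale (limma adjusted p = 0.000599). Tpm4, a tropomyosin 125.3 kb away, rose from 78.4 ± 7.64 to 98.0 ± 7.02 FPKM (SD, n = 4 each, limma adjusted p = 0.0295), though a listed copy, Gm7809, shares 96.8% of its aligned sequence. Pgls, an enzyme of the pentose phosphate pathway 387.4 kb away, fell from 181 ± 9.29 to 131 ± 25.3 FPKM (SD, n = 4 each, limma adjusted p = 0.0249), and Med26, a Mediator subunit 484.9 kb away, fell by 0.32 ± 0.10 (SE) on the log2 scale (limma adjusted p = 0.0432). Med26 was not past the thresholds with the GC content and length correction (limma adjusted p = 0.156). With 1 library left out, Fam32a passed in all 8 comparisons, Tpm4 in 4, Pgls in 2 and Med26 in 1.

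**Figure D4:**
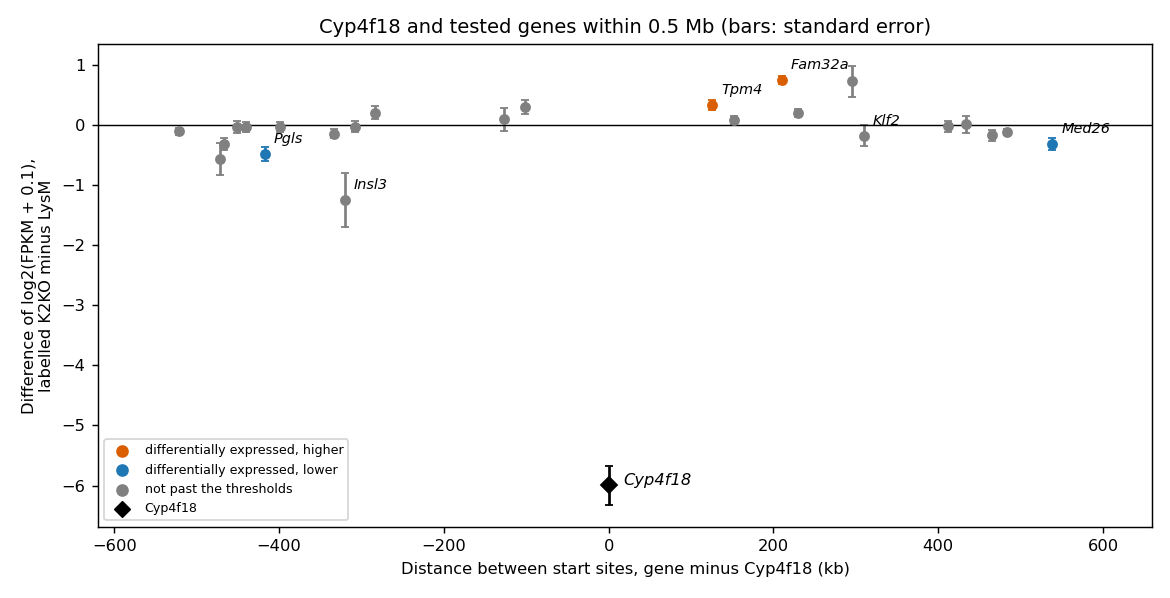
Difference of log2(FPKM + 0.1), labelled K2KO minus LysM, with its standard error against the distance between start sites for Cyp4f18 (black diamond, -6.00) and the 24 compared genes within 0.5 Mb. Fam32a and Tpm4 are higher, Pgls and Med26 lower, and Insl3, whose transcript lies within Jak3, has a wide error.

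The closest neighbours had low FPKM. Zfp961, a zinc finger gene on the opposite strand, overlaps the 3′ end of Cyp4f18. It stood at 0.656, 0.384, 0.851 and 0.214 FPKM in LysM0 to LysM3 and at 1.07, 1.10, 1.15 and 0.622 FPKM in K2KO0 to K2KO3, with overlapping ranges and a mean under 1 FPKM. The fragments of Zfp961 and Cyp4f18 in the shared stretch could be told apart only where the counting used strand, which was not stated. Zfp617 and Zfp709, 53.9 and 92.8 kb away, had LysM means of 1.64 and 1.18 FPKM and were not differentially expressed (limma adjusted p = 0.104 and 0.751).

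Markers of other cells that a bone marrow culture could hold were compared by their summed FPKM. The macrophage list, with all 8 genes listed and Cd68 the most abundant, summed to 4048, 4141, 3927 and 4053 FPKM in LysM0 to LysM3 and to 3733, 3683, 3826 and 3814 FPKM in K2KO0 to K2KO3. Every sum labelled K2KO was below every LysM sum (two-sided exact permutation test, p = 0.0286, the smallest that 35 splits can give, and 0.286 adjusted over 10 lists). Its genes went both ways, with K2KO means above the LysM means for 3 of the 8, and the groups did not overlap for Lyz2 and for Cd14, at 969 to 1099 FPKM in LysM and 664 to 930.2 FPKM in the libraries labelled K2KO. The neutrophil list, with all 12 genes listed and S100a9 the most abundant, summed to 217, 300.4, 261 and 350.0 FPKM in LysM0 to LysM3. It summed to 219, 325, 265 and 345 FPKM in K2KO0 to K2KO3, in overlapping ranges (two-sided exact permutation test, p = 0.857, and 0.943 adjusted over 10 lists). Of its 12 genes, 8 had K2KO means above their LysM means, and the one whose groups did not overlap, Camp, was lower in the libraries labelled K2KO, at 4.04 to 9.78 FPKM against 11.1 to 16.01 FPKM in LysM. LysM0, with the lowest neutrophil sum of the LysM libraries, had the lowest LysM values of Cyp4f18, Alox5ap and Dpep2. K2KO0, with the lowest sum of its group, had the lowest Cyp4f18 value there, but the lowest Alox5ap and Dpep2 values were in K2KO1, which had the second highest sum. The defining neutrophil marker Ly6g was at 0.121 to 0.357 FPKM in LysM and 0 to 0.234 FPKM in the libraries labelled K2KO, and the part of these cells in the results was not tested.

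Mast cells and basophils, which make LTC4 and PGD2, were represented by 8 listed genes of 9 that summed to 1.61 ± 0.841 FPKM in LysM and 3.08 ± 1.35 FPKM in the libraries labelled K2KO (SD, n = 4 each), with Prss34 the most abundant and Tpsb2 listed at 0. The ranges of these sums overlapped (two-sided exact permutation test, p = 0.171, 0.429 adjusted over 10 lists). Of the 8 genes, 7 had K2KO means above their LysM means, and for 1 of them the groups did not overlap. Platelets, which make thromboxane, were represented by 4 genes that summed to 3.86 ± 1.06 and 7.02 ± 1.87 FPKM (SD, n = 4 each, two-sided exact permutation test, p = 0.0571, 0.286 adjusted over 10 lists), with Ppbp the most abundant. The eosinophil list (Prg2 the most abundant) had means of 6.88 and 6.39 FPKM and the dendritic cell list (Itgax) 7.34 and 8.12 FPKM. The B cell list (Cd79b) had means of 3.19 and 4.36 FPKM and the T cell list (Lck) 0.468 and 0.723 FPKM. The fibroblast list (Dcn) had means of 0.627 and 1.74 FPKM and the erythroid list (Klf1) 0.199 and 0.205 FPKM. The ranges of each of these 6 lists overlapped, and their part in the eicosanoid values was not tested.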

How the data were processed

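RNA-sequencing of BMDMs from 4 LysM and 4 K2KO mice was analysed from the table that the authors deposited. The authors aligned the reads and computed FPKM per gene and library before they deposited the table, with no pooling of replicates. The methods name the TruSeq Stranded Total RNA kit, an RNeasy isolation kit, TopHat2 on mm10 and Cufflinks. The submitters' processing notes name STAR, Cufflinks, Cuffdiff and mm10, and the labels another isolation kit, and which aligner made the table is not given in the sources used here. Program versions and the strand setting were likewise not given.

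The members and gene lists were chosen with earlier results of these data known. FPKM were compared as log2(FPKM + 0.1) where the mean over the libraries reached 1 FPKM (10920 genes). The fit used limma 3.58.1 under R 4.3.3 (lmFit, then eBayes allowing for an intensity trend), without covariates and with Benjamini-Hochberg adjustment. Thresholds were 0.05 for the adjusted p and 0.26 for the absolute log2 difference. The procedure was tested on simulated data. Values given as a difference ± SE are from this fit, and the SE is limma's. Relative depth was estimated from the smallest steps between FPKM of genes with 1 transcript. FPKM carry no counts, so no counting interval is given.

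Names, positions, GC content and lengths came from GENCODE M21 on GRCm38, which matched 23645 of 23761 genes. Promoters came from RefSeq, and 9 of the 10 genes matched. Sequence identity was computed with BLAST+ 2.17.0. Genes named were Klf2, the 10 genes, differentially expressed genes of the wider list with the most expressed gene of each role, CYP4F genes that were compared, the 5 genes most like Cyp4f18 by either measure, neighbours within 0.5 Mb and the most abundant gene of each marker list. Lyz2, Mgst3, Zfp961, Zfp617, Zfp709, Cyp4f14, Cyp4f17, Cyp4f37, Cyp4f39, Cyp4f40, Ly6g, Camp, Cd14, Tpsb2, Gapdh, Actb, sequence copies and overlapping genes were named after their values were seen. Single sums were compared by two-sided exact permutation. Alternatives were other pseudocounts, filters and scalings, tests without a trend or without shared spread, the replicate number as a block, a local regression on GC content and length, a limit of 1 on the log2 difference, and leaving out each library. No value column of the table was left unused. Alox12b, Alox12e, Ptgdr, Ptgfr, Cyp4f15, Cyp4a10, Cyp4a14 and Cyp2j5 had no expression values analysed here.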

Additional observations from a re-analysis of the deposited data

Results flagged for a closer look

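In 10 of 138 groups of 4 libraries, the highest or lowest library lay far from the other 3 by Dixon's criterion, where chance gives about 6.9. Of the 10 eicosanoid genes, 2 had such a library: Cyp4f18 was low in LysM0 (21.2 FPKM, the others 43.7 to 48.2), and Ltb4r1 was high in LysM1 (1.10 FPKM, the others 0.304 to 0.432). In the wider list, Cbr1 was low in K2KO0 (29.5 FPKM). Of the genes most like Cyp4f18, Ndufa5 was low in LysM0 (61.1 FPKM), Cdk2ap2 was high in K2KO3 (80.9 FPKM) and Pydc3 was the highest of its group in K2KO0 (0.0114 FPKM, the others listed at 0). Of the neighbours of Cyp4f18, Gm10282 was high in LysM0 (1.32 FPKM), Gtpbp3 high in K2KO0 (6.45 FPKM), Pgls high in K2KO3 (169 FPKM) and Slc27a1 high in K2KO3 (145 FPKM). The libraries LysM0, K2KO0 and K2KO3 thus appeared 3 times each and LysM1 once, and no cause was tested.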

How the results depend on the processing

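Over the whole table, 2014 genes were differentially expressed (limma). The number was 483 without a filter on low values, 746 with ordinary least squares, 1095 with the GC content and length correction, 864 with that correction and the replicate block together, 110 at an absolute log2 difference over 1, and 337 (without LysM3) to 2837 (without K2KO3) with 1 library left out. For the 30 wider-list genes, where the reported number was 8, it was 1 (of 63 without a filter), 3, 4, 3 and 0 in the same settings and 1 (without LysM3 or K2KO2) to 8 with 1 library left out. None of the 30 had an absolute difference over 1 before any test. For the 7 genes compared of the group of 10, as a description, where it was 3, it was 1 (of 10) without a filter, 1 (Cyp4f18) at an absolute difference over 1, and 1 (without LysM3) to 4 with 1 library left out. Of the 5 genes most like Cyp4f18, 3 stayed with a pseudocount of 1 and 0 to 4 with 1 library left out. The cause of these changes was not tested, beyond the fewer genes or libraries in the fit. With the replicate number as a block, 2057 genes, 7 wider-list genes and 4 of the group of 10 passed. The numbers did not pair the libraries: r of the deviations was -0.07 to 0.07 over the 4 same-numbered pairs and -0.14 to 0.18 over the others. Of 1064 single-gene values for 56 genes, 932 kept their side of the thresholds, 119 lost the call and 13 gained it. Among these 56 genes, no value past the thresholds changed sign. Some that were not past them did, among them Klf2 and Cysltr1 with the GC content and length correction. Actb, outside the 56 genes, was past the thresholds but ranged from -0.43 to 0.0061 on the log2 scale over the alternatives. The higher share of calls was 53.3% as reported, 64.1% with upper-quartile scaling and 44.2% with the GC content and length correction. Alox5, Ltb4r1 and Ptges rested on few fragments.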
